A study of Glycine max with 4 samples.

Results

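Rubisco, the enzyme that fixes carbon dioxide in the chloroplast stroma, is built from large subunits encoded in the chloroplast genome and small subunits encoded by a small family of nuclear RbcS genes. RbcS messenger RNA is known in flowering plants for very high levels in green leaf tissue, for a rise in light and for low levels in meristems and other non-green tissue. Copies of the family within a species are often close to identical in their coding sequence. The soybean genes described here are 3, Glyma13g07610 on chromosome 13 and Glyma19g06340 and Glyma19g06370 on chromosome 19, taken by identifier, and all 3 were found among the 69145 genes of the deposited tables. The tables hold no gene names and 0 identifiers matched the RefSeq gene table of the current soybean assembly. The name Rubisco small subunit therefore rests on the identifiers and could be set only against the levels. Below, the family means these 3 genes only. Whether other genes of the tables are further RbcS copies could not be checked.

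RNA came from 2 tissues, young shoot tips and vegetative buds, of 2 near-identical lines (isolines) of the soybean cultivar Clark, the wild type Clark standard with trifoliate leaves and the leaf mutant Clark five-foliate. All plants were 4 weeks old and were grown in a greenhouse under conditions labelled optimal. The labels speak of multiple plants per harvest, and each of the 4 combinations of line and tissue had 1 library, named here standard tip, mutant tip, standard bud and mutant bud, where mutant stands for Clark five-foliate. The gene or genes behind the mutant leaf are not named in the labels, and with no gene names the tissue labels could not be set against marker genes. Values are RPKM, reads scaled by the length of a gene model and the depth of the library. Library totals recovered from the values ran from 97532923 to 152791817 alignments. Intervals below are 95% exact binomial intervals from recovered reads, cover counting error only and treat reads as independent. Where reads of different genes are compared or summed, the intervals also take each read as counted for 1 gene only. This was not tested. No difference within a tissue or within a line has a replicate check. In these bulk samples fewer green cells and less RNA per cell cannot be told apart.

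The 3 genes had the 3 highest RPKM values of all genes in the standard tip, had lower values in the mutant tip and again in the standard bud, and were lowest in the mutant bud. Glyma19g06370 had 19969 RPKM in the standard tip, 5297 RPKM in the mutant tip, 848 RPKM in the bud of the standard line and 715 RPKM in that of the mutant. Glyma19g06340 had 17198, 4572, 730 and 616 RPKM in the same order of libraries. Glyma13g07610 had 11948, 2822, 476 and 402 RPKM. Levels per length had the same order of genes in each of the 4 libraries, with Glyma19g06370 highest and Glyma13g07610 lowest, and the same order of libraries for each of the 3 genes. Of 40448 genes with at least 1 RPKM in a library, 8.25% showed the same order of libraries, and of the 1096 genes at 100 RPKM or more in a library 27.7% did, so the order itself is shared with many abundant genes. The steps between libraries were unequal: the levels were several-fold lower after each of the first 2 steps and 0.24 to 0.25 log2 units lower after the last.

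**Figure D1:**
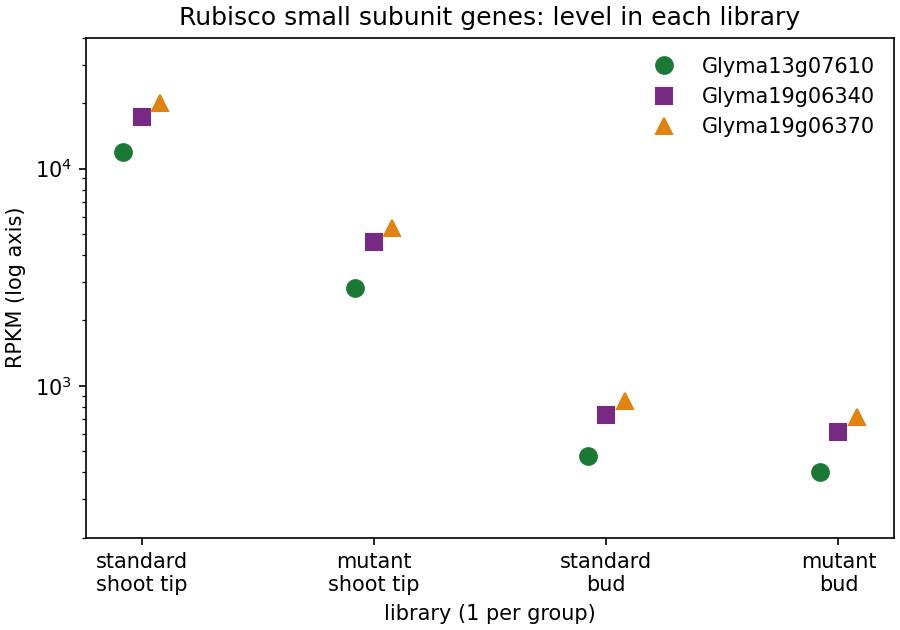
RPKM (log axis) of the 3 Rubisco small subunit genes in the 4 libraries, 1 point per gene and library. The points lie between 11948 and 19969 RPKM in the standard tip and between 402 and 715 RPKM in the mutant bud, with the same order of genes in each library.

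The place of the genes among all others moved with these levels. In the standard tip they held ranks 1 to 3, and the most abundant gene outside the family had 4762 RPKM, so the summed RPKM of the family, 49115, was 10.3 times that level. In the mutant tip Glyma19g06370 and Glyma19g06340 still held ranks 1 and 2, while Glyma13g07610 stood at rank 10. In the standard bud the ranks were 31, 33 and 61, and in the mutant bud 41, 45 and 71, for Glyma19g06370, Glyma19g06340 and Glyma13g07610 in that order. These bud ranks are still those of abundant genes, since the median gene with any read had 2.50 RPKM in the bud of the standard line and 2.40 RPKM in that of the mutant.

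As a share of the RPKM sum of all genes, the 3 genes together took 9.29% of the standard tip, 2.23% of the mutant tip, 0.369% of the standard bud and 0.302% of the mutant bud. In the standard tip Glyma19g06370 took 3.78%, Glyma19g06340 3.25% and Glyma13g07610 2.26%. In the mutant tip the shares were 0.931%, 0.804% and 0.496% in the same order of genes. In the buds no gene of the family passed 0.152%. Counted as alignments without scaling by length, with 1 model per gene against a library total that takes in the alignments of all models (96.3% to 98.1% of it was recovered as reads of the listed models), the family took 4.628% of the standard tip total (interval 4.625 to 4.631) and 1.193% of the mutant tip total (interval 1.192 to 1.195). The bud shares of alignments were 0.193% (interval 0.192 to 0.194) and 0.163% (interval 0.162 to 0.164), standard before mutant. Summed over all 8 models of the family, which can count a read more than once, the alignments were 12.1%, 3.20%, 0.512% and 0.432% of the totals. With Glyma19g06370 alone counted, for the case that all 3 genes collected the same reads, and the other members taken out of the RPKM sum as well, its shares of that smaller sum were 4.00%, 0.944%, 0.153% and 0.125%, so the level of the share depended on how shared reads were counted while the order of libraries did not.

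**Figure D2:**
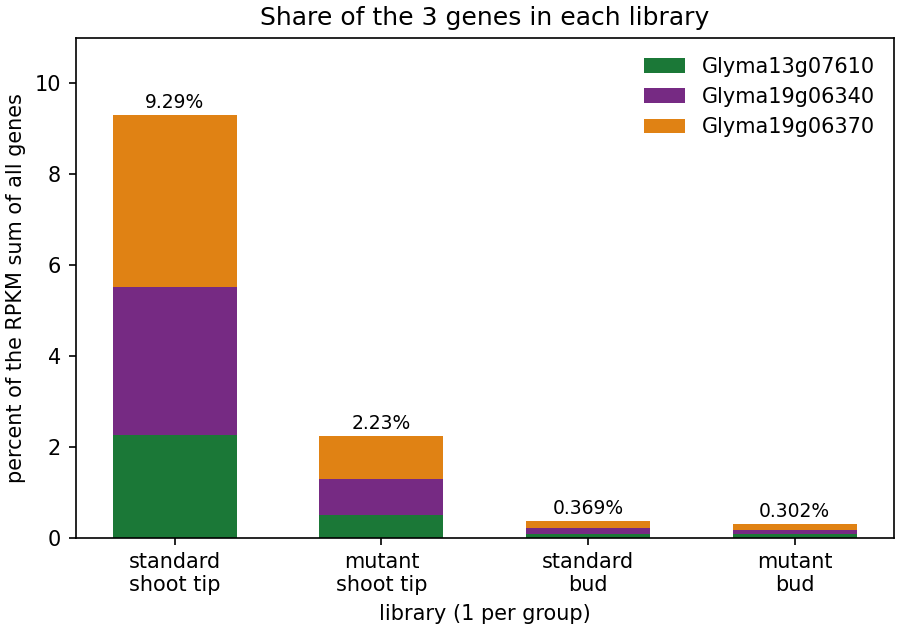
Percent of the RPKM sum of all genes (1 model per gene) taken by each of the 3 genes in the 4 libraries, as stacked bars starting at 0 with the family total above each bar. The total was 9.29% in the standard tip and 0.302% in the mutant bud.

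The first comparison set the lines against each other in the shoot tip. All 3 genes were lower in the mutant library, Glyma13g07610 by the largest factor. Its level was 4.23-fold higher in the standard tip (interval 4.22 to 4.25). Glyma19g06370 was 3.77-fold higher there (interval 3.76 to 3.78) and Glyma19g06340 3.76-fold higher (interval 3.75 to 3.77). The 3 genes had log2 ratios of (RPKM + 1), mutant over standard, of -2.08, -1.91 and -1.91, beside a median of 0.34 over all 36537 genes that reached 1 RPKM in either shoot tip library. Of those genes, 4.7% were at least 2-fold lower in the mutant tip, a share that became 8.2% when ratios were centred on their median and 7.55% with upper-quartile scaling. The split of 1717 lower and 2780 higher genes became 2997 and 1108 with centring and 2792 and 1365 with upper-quartile scaling. Measured from that median, the family ratio was -2.29. Of the 901 genes at 100 RPKM or more in either library, 19.1% were at least 2-fold lower and 18.5% at least 2-fold higher in the mutant tip, and their median log2 ratio was 0.50. Among these abundant genes 49 (5.44%) had a lower ratio than Glyma13g07610 and 71 (7.88%) a lower ratio than Glyma19g06340. Over all 36537 genes 295 and 381 did, or 0.807% and 1.04%. The factor of the small subunit genes was thus among the larger ones but not the largest.

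By amount rather than by factor, the 3 genes stood first. Ranked by RPKM lost from the standard to the mutant tip, Glyma19g06370, Glyma19g06340 and Glyma13g07610 were genes 1, 2 and 3 of the whole table. No gene outside the family had more than 4762 RPKM in the standard tip to lose. This ranking therefore follows largely from the levels of the 3 genes there and is no separate result. Their summed level went from 49115 RPKM in the standard tip to 12691 RPKM in the mutant tip. The difference made up 25.2% of the RPKM lost by all genes that were lower. Both sums count each chromosome 19 gene in full, although reads of that pair were nearly equal and may be shared. Glyma19g06370 alone made up 10.1% of that loss. The RPKM of all other genes summed to 479365 in the standard and 556068 in the mutant tip, 1.16 times as much. RPKM values of a library are tied to a common total, and the part of this in the ratios of other genes was not tested.

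In the vegetative bud the same comparison gave a small difference. All 3 genes were lower in the mutant bud, by nearly the same factor. Glyma19g06340 and Glyma19g06370 were both 1.19-fold higher in the standard bud (intervals 1.17 to 1.20 for each) and Glyma13g07610 was 1.18-fold higher (interval 1.17 to 1.20). None of the 3 reached a 2-fold difference, which 0.916% of the 38332 genes compared in the bud did, and 0.206% of the 38332 were that much lower in the mutant bud. The log2 ratios were -0.24 for Glyma13g07610 and -0.25 for both chromosome 19 genes, beside a median of -0.06 over all genes. From 4019 to 4198 genes, or 10.48% to 10.95%, had a lower ratio than the 3 genes. Among the 722 genes at 100 RPKM or more in either bud library 103 to 108 did, or 14.27% to 14.96%. The intervals leave out a ratio of 1, but the spread between plants or libraries of a line is unknown, and the difference from the shoot tip ratio was not tested because a model with both terms and their interaction leaves no degree of freedom.

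**Figure D3:**
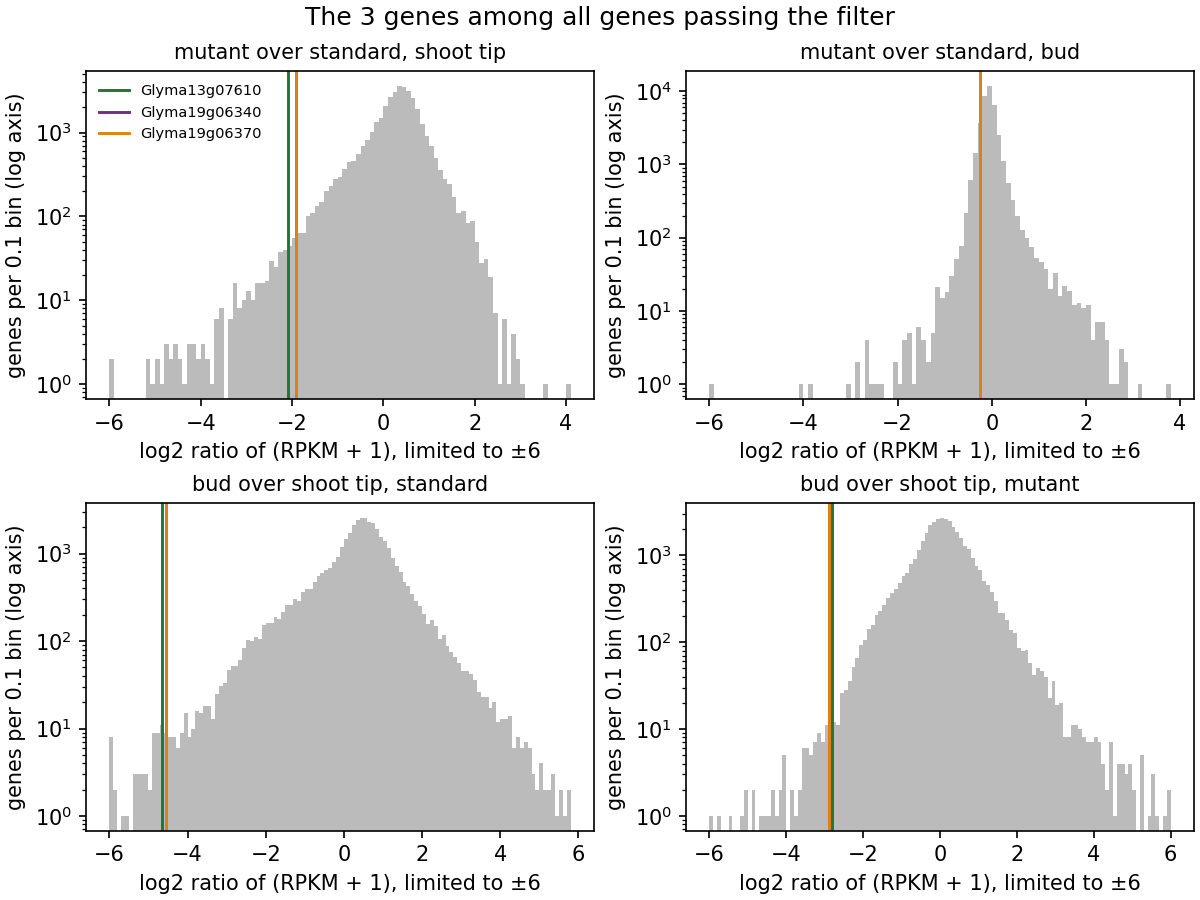
Number of genes (log axis) by log2 ratio of (RPKM + 1), limited to 6 in either direction, for the comparison of lines in each tissue and of tissues in each line, with a vertical line at the ratio of each small subunit gene. The lines of Glyma19g06340 and Glyma19g06370 lie on each other; the 3 genes stand at -1.91 to -2.08 in the shoot tip and near -0.25 in the bud comparison of lines.

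The next comparison set bud against shoot tip within each line. In the standard line all 3 genes were far lower in the bud, with levels 25.1-fold higher in the shoot tip for Glyma13g07610 (interval 24.9 to 25.3), 23.6-fold for Glyma19g06370 (interval 23.4 to 23.7) and 23.5-fold for Glyma19g06340 (interval 23.4 to 23.7). The log2 ratios, bud over shoot tip, were -4.65, -4.56 and -4.56, beside a median of 0.47 over 39343 genes. Of those genes, 9% were at least 2-fold lower in the standard bud, or 14.6% after centring. The split of 3539 lower and 8144 higher genes became 5747 and 3586 with centring and 4936 and 4910 with upper-quartile scaling. From 48 to 58 genes, at most 0.147% of all, had a lower ratio than the 3 members, and among the 981 genes at 100 RPKM or more in either library of the standard line 26 to 30 did, or 2.65% to 3.06%. Measured from the median of all genes, the family ratio in the standard line was -5.05.

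In the mutant line the tissue difference had the same direction, with log2 ratios of -2.81 to -2.89 beside a median of 0.07 over all genes. Glyma19g06340 was 7.43-fold higher in the mutant tip than in the mutant bud (interval 7.37 to 7.49), Glyma19g06370 7.41-fold (interval 7.35 to 7.47) and Glyma13g07610 7.02-fold (interval 6.95 to 7.09). The gene with the largest tissue factor in the standard line thus had the smallest in the mutant line. With nearly equal line factors in the bud, this follows from the larger line factor of Glyma13g07610 in the shoot tip. It is no separate result. Of 39042 genes 7.92% were at least 2-fold lower in the mutant bud, and 77 to 93 genes had a lower ratio than the 3 members. Among the 907 genes at 100 RPKM or more in either library of that line, 5 to 7 did, or 0.551% to 0.772%. The tissue comparison of one line and the line comparison of one tissue share a library. The bud and shoot tip values come from separate tables, so a tissue difference cannot be told apart from a difference between the tables.

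Both factors were also fitted over the 4 libraries with limma, with line and tissue as terms, on log2(RPKM + 1) of all 40448 genes. For tissue the fitted log2 difference, bud minus shoot tip, was -3.73 for Glyma13g07610 (adjusted p = 7.65e-21 in limma) and -3.72 for Glyma19g06340 (adjusted p = 8.49e-21 in limma) and Glyma19g06370 (adjusted p = 8.64e-21 in limma), and each gene was lower in the bud in both lines. The fit called 7.61% of all genes lower in the bud, so these calls place the 3 genes among 3077. For line the fitted difference, mutant minus standard, was -1.16 for Glyma13g07610 (adjusted p = 0.212 in limma), -1.08 for Glyma19g06340 (adjusted p = 0.347 in limma) and -1.08 for Glyma19g06370 (adjusted p = 0.346 in limma). The difference between lines did not pass the threshold for any of the 3 (adjusted p 0.212 to 1 over all settings in limma), while 0.346% of all genes were called lower in the mutant line. Only 1 residual degree of freedom was left, and every gene was given the same standard error of 0.375. With 1 library per group, that degree of freedom holds how far the line difference disagreed between tissues, not a spread between replicates. For the 3 genes the line log2 ratios were -1.91 to -2.08 in the shoot tip and -0.24 to -0.25 in the bud. The pooled standard error does not carry that disagreement, so the adjusted p values measure neither it nor a spread between replicates. With no filter on low genes, where the prior degrees of freedom were 0.536 in place of infinite, the tissue calls of all 3 genes were lost (adjusted p 0.288 to 0.301 in limma), and over the other settings their adjusted p ran up to 0.0488 in limma.

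The reads behind the values were nearly equal for the chromosome 19 genes in every library. Glyma19g06370, read as a model of 858 bases, had 2617871 reads in the standard tip, 635262 in the mutant tip, 70923 in the bud of the standard line and 63549 in that of the mutant. Glyma19g06340, with a model of 991 bases, had 2603992, 633290, 70592 and 63209 reads in these libraries. Its reads were 99.5% of those of Glyma19g06370 in the standard tip (interval 99.3 to 99.6), 99.7% in the mutant tip, 99.5% in the bud of the standard line and 99.5% in that of the mutant. The pair thus had almost the same number of reads everywhere, and the higher RPKM of Glyma19g06370 goes with its shorter model. The numbers were close but not identical: 0 of 1561 models of other genes compared had the reads of Glyma19g06340 in all 4 libraries, and the closest was Glyma19g06370 at a difference of at most 0.538%. How reads matching several places were counted is not given in the sources used here, so the chromosome 19 values are uncertain as values of separate genes. Whether the same reads were counted for both genes was not tested. If they were, the interval above would not give the counting error of that ratio.

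Glyma13g07610, with a model of 1013 bases, had fewer reads and a less fixed ratio. It had 1849286 reads in the standard tip, 399537 in the mutant tip, 47014 in the bud of the standard line and 42219 in that of the mutant. Set against Glyma19g06370, these were 70.6% in the standard tip (interval 70.5 to 70.8), 62.9% in the mutant tip (interval 62.6 to 63.1), 66.3% in the bud of the standard line (interval 65.5 to 67.1) and 66.4% in that of the mutant (interval 65.6 to 67.3). The bud libraries had overlapping intervals, and the shoot tip libraries lay on either side of them. The gap between the shoot tip libraries restates the larger line factor of Glyma13g07610 there. As a part of the family's summed RPKM, Glyma13g07610 made up 24.3%, 22.2%, 23.2% and 23.2% in the order of libraries used above, Glyma19g06340 35.0% to 36.0% and Glyma19g06370 40.7% to 41.7%. These parts stayed within narrow ranges while the summed RPKM of the family was 28.3-fold higher in the standard tip than in the mutant bud. Whether Glyma13g07610 shared reads with the other members was not tested, so the narrow ranges cannot be read as separate genes changing alike.

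**Figure D4:**
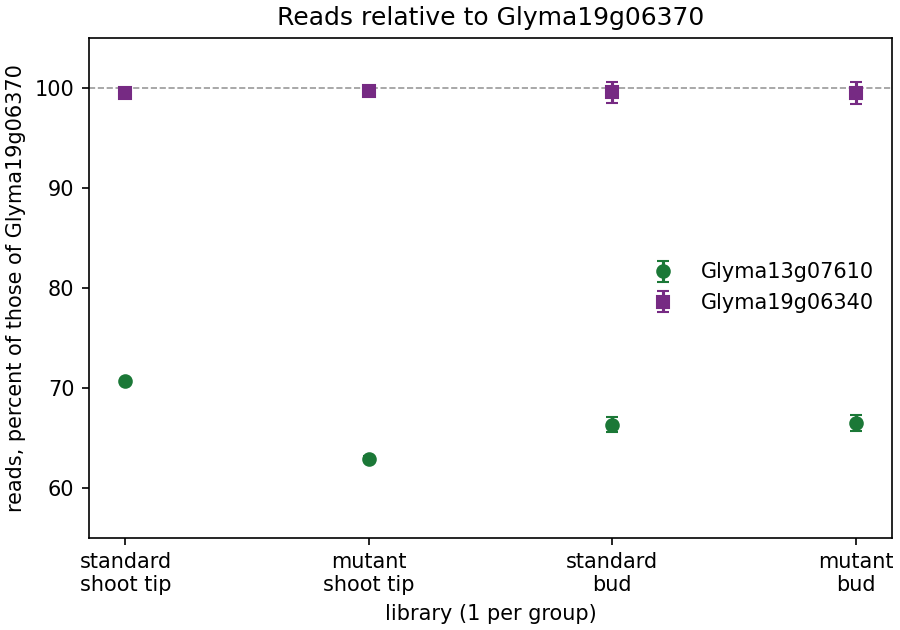
Reads of Glyma13g07610 and Glyma19g06340 as a percent of the reads of Glyma19g06370 in each library. Bars are 95% exact binomial intervals that cover counting error only and take the reads of different genes as separate. Glyma19g06340 stays at 99.5% to 99.7%, and Glyma13g07610 lies between 62.9% and 70.6%, highest in the standard and lowest in the mutant tip.

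Glyma19g06340 was listed with 6 gene models and the other 2 genes with 1 each. The highest of the 6, Glyma19g06340.1, stood for the gene above. In the standard tip the others ran from 11972 RPKM for Glyma19g06340.2, the longest at 1275 bases, to 15782 RPKM for Glyma19g06340.6. Their reads were 84.4% to 91.4% of those of the first model in that library, and how many of these reads were counted for several models could not be read from the values. In the shoot tip the standard library was higher by 3.67-fold to 3.76-fold for 5 of the 6 models and by 3.93-fold for Glyma19g06340.5 (interval 3.92 to 3.95). The reads of Glyma19g06340.5 were 84.7% of those of the first model in the standard tip, 81.0% in the mutant tip, 85.2% in the bud of the standard line and 85.0% in that of the mutant. Only the mutant tip was low in this ratio. The other 4 models were instead higher there than in any other library, at 86.6% for Glyma19g06340.3, 90.8% for Glyma19g06340.4, 91.9% for Glyma19g06340.2 and 92.1% for Glyma19g06340.6, each as a percent of the reads of the first model. For Glyma19g06340.6 the mutant bud was almost as high, at 91.9%. No intervals are given for these percents, so so small a gap cannot be set against counting error. In the bud the 6 models differed between lines by 1.18-fold to 1.19-fold, with overlapping intervals.

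**Figure D5:**
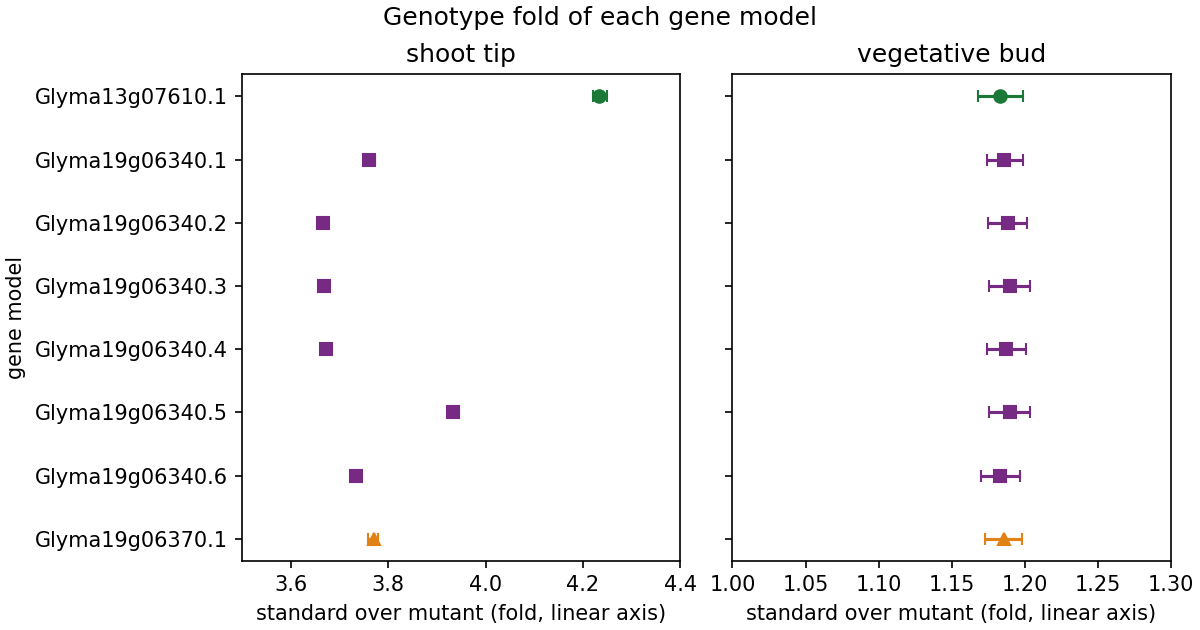
Fold of standard over mutant for each of the 8 gene models of the family in the shoot tip (axis from 3.5) and the vegetative bud (axis from 1.0), with 95% exact binomial intervals that cover counting error only. In the shoot tip Glyma13g07610.1 at 4.23 and Glyma19g06340.5 at 3.93 lie above the other models, and in the bud all intervals overlap.

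Position in the genome gave no run of genes at such levels. Identifiers place Glyma19g06340 and Glyma19g06370 3 places apart, and the 2 genes between them had far lower levels: Glyma19g06350 had 1.03, 0.474, 0.223 and 0.192 RPKM in the 4 libraries, and Glyma19g06360 was listed at 0 in each. Of the 19 other genes within 10 places of Glyma19g06370, 4 were listed at 0 in all libraries, 9 reached 1 RPKM in a library and 2 reached 100 RPKM. One of these 2, 5 places after it, had 1016 RPKM in the standard tip, 261.9 in the mutant tip, 59.0 in the bud of the standard line and 46.05 in that of the mutant, the same order of libraries as the small subunit genes. The other had 69.2, 106.7, 82.0 and 80.2 RPKM and a different order. Around Glyma13g07610, 14 of 20 neighbours reached 1 RPKM and none of them passed 44.9 RPKM. Of 13 neighbours there that could be compared between lines in the shoot tip, 1 was at least 2-fold lower and 1 at least 2-fold higher in the mutant library. The order is that of the identifiers, and no coordinates were used.

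The family's profile over the 4 libraries was set against those of the other abundant genes. Likeness was measured as the distance between log2(RPKM + 1) values of the 4 libraries, each centred on its own mean, over the 1096 genes at 100 RPKM or more in a library, where the median distance from the family total was 4.13. The members themselves lay at 0.0271 for Glyma19g06370, 0.0292 for Glyma19g06340 and 0.0916 for Glyma13g07610. Their RPKM values make up the family total, so their nearness to it is in part built in and is no result. The nearest gene outside the family, Glyma19g41540, lay at 0.0719, between the members, and had 309 RPKM in the standard tip, 80.8 in the mutant tip, 12.9 in the bud of the standard line and 10.4 in that of the mutant. Glyma03g38930 came next at 0.118, with 331, 81.7, 11.7 and 9.58 RPKM. The next 2 lay at 0.271 and 0.289, and 36 genes outside the family lay within a distance of 1. The files do not name these genes, and the levels of the nearest 4 were far below those of the small subunit genes. With 4 libraries the likeness rests on 4 values per gene.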

How the data were processed

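The members and gene lists were chosen with earlier results of these data known. RPKM values of 78773 gene models were deposited by the authors in 2 tables, 1 per tissue; the submitters' processing notes name Bowtie. Its version, the genome build, the annotation and the counting of multiply matching reads are not given in the sources used. Each gene was represented by its model of highest mean RPKM. Whole reads, lengths and totals were recovered by searching lengths from 20 to 20000 for values whole within 0.002 reads, as for 100% of 3000 models tried and 0% after random shifts. Ratios were log2(RPKM + 1) differences for genes at 1 RPKM or more in either library, counted at 2-fold. limma 3.58.1 (R 4.3.3, Benjamini-Hochberg threshold 0.05) used terms line and tissue, the number in the titles, and was tried on simulated data. These held differences between lines only, alike in both tissues. The trial therefore cannot show how the fit behaves where line differences disagree between tissues. Other steps used SciPy 1.17.1, pandas 2.3.3 and numpy 2.4.6 in Python 3.11.15, with matplotlib 3.10.9 for plots. In a model of 1 kb, 3 reads correspond to 0.0196 to 0.0308 RPKM. Genes outside the family were named by nearness of profile or by identifier neighbours, with at most 2 nearest identifiers printed. Alternatives were other pseudocounts, filters, scalings, thresholds and model sums. A list of other photosynthesis genes could not be applied, since no identifier matched the 59048 genes of the reference.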

Additional observations from a re-analysis of the deposited data

How the results depend on the processing

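The family's log2 ratios kept their direction in every alternative. Centring on the median of all genes gave -2.29 (lines, shoot tip), -0.18 (lines, bud), -5.05 (tissues, standard) and -2.94 (tissues, five-foliate). Upper-quartile scaling gave -2.31, -0.17, -4.99 and -2.85 in that order. Summing RPKM over models gave -1.92, -4.56 and -2.89 for lines in the shoot tip and for tissues in the standard and the five-foliate line, and counting the chromosome 19 pair once, chosen after the data were seen, gave -1.97, -4.59 and -2.86. Of 60 ratios of single members under the other scalings, pseudocounts and model sums, 25 left their counting interval and 0 changed sign. The family's share of the standard shoot tip, five-foliate shoot tip, standard bud and five-foliate bud was 15.8%, 4.21%, 0.6955% and 0.5755% with all models summed. It was 4.63%, 1.19%, 0.193% and 0.163% as a share of alignments, and 9.69%, 2.45%, 0.406% and 0.352% without the 20 most abundant other genes. With the chromosome 19 pair counted once it was 6.24%, 1.44%, 0.238% and 0.195%, and with Glyma19g06370 alone 4.00%, 0.944%, 0.153% and 0.125%, both chosen after the data were seen. For line, limma called 204 genes as reported (1601 at an unadjusted p under 0.05), 102 at a filter of 5 RPKM, 1 at a pseudocount of 5, and 0 with no filter (1903 unadjusted), library centring (482), upper-quartile scaling (493) and no replicate block, which leaves tissue out (116). For tissue it called 8613 as reported, 5531 at a filter of 5 RPKM, 5199 at a pseudocount of 5, 2829 with centring, 3930 with upper-quartile scaling and 0 with no filter (12218 unadjusted). The causes were not tested. With a 3-fold threshold the counts of genes past it were 1210, 129, 4851 and 2474 in the order of ratios above, and a filter of 5 RPKM left 163 in the bud comparison of lines. No outlier test or omission of a replicate was possible with 1 library per group.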
